A study of Mus musculus with 18 samples.

Results

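Trophoblast stem cells (TSCs) were compared after 7 days of hypoxia and in normoxia, over every gene that 2 or more of the 6 TSC libraries held at over 0.4 TPM. This gave 12481 genes of the 13518 in the TSC table. TPM here give a gene's share of the total over the protein-coding genes of the table in a library. They were scaled by the distance from gene start to gene end, with introns counted in. Levels are thus compared between libraries of the same gene and not between genes. The mouse TSCs, whose line the labels do not name, were grown on a layer of feeder cells in medium with FGF4 and heparin, and no mutation or drug is named for any group. Each of the 3 groups, normoxia, day 2 and day 7 of hypoxia, held 2 biological replicates, so that 4 libraries were compared and the 2 day 2 libraries were fitted with them. The sample titles give no day of culture for normoxia, and the same 2 normoxic libraries served both days of hypoxia. From these labels, hypoxia and time in culture cannot be told apart. The whole series held 18 libraries from ESCs, TSCs and XEN cells.

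TSCs are derived from the trophectoderm, the layer of the early embryo that forms the placenta. FGF signalling through ERK keeps them dividing, together with transcription factors such as Cdx2, Eomes, Elf5 and Esrrb. When FGF4 is withdrawn they leave this state and form trophoblast giant cells, which invade the uterus, spongiotrophoblast or the syncytiotrophoblast of the labyrinth, where gases are exchanged. Low oxygen stabilises the HIF transcription factors, which raise glycolysis and angiogenic factors, and the placenta forms at low oxygen in the embryo. The comparison asked how the transcriptome of TSCs stood after a week at low oxygen.

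The TSC libraries held between 43011670 and 49851162 reads in genes. Of 28 listed TSC regulators 25 were tested, and 0 were at 0 in any library. Such counts do not mark a cell type, as 12481 of 13518 genes were tested. Between 1 and 25 genes of the 13518 were at 0 in each TSC library. Eomes stood at 439 and 364 TPM in normoxia and Elf5 at 60.4 and 56.6 TPM. The normoxic replicates were less alike than those of day 7, with Pearson's r of 0.967 and 0.987 across genes, which are not independent replicates. They stood over 2-fold apart for 1077 genes, and replicate 1 was the higher for 852 of these. Of 27 genes of embryonic fibroblasts, the usual feeder cells, 26 were tested, and 0 of 26 were at 0 in any library, which also held for most genes. Their summed TPM was 7111 and 992 in the normoxic libraries, 929 and 3421 at day 2, and 1911 and 1129 at day 7, so that normoxia replicate 1 stood apart. Whether feeder RNA had a part in any difference below was not tested. Fewer cells of a type and less RNA per cell cannot be told apart in these bulk samples.

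On day 7 far more genes were lower than higher in TPM, and stem cell and developmental regulators were among the lower ones. Differentially expressed (DE) genes had an adjusted p at or under 0.1 by limma and a fold change over 1.5, and 48 of 12481 genes passed (0.385%). Of these, 5 rose (0.0401%) and 43 fell (0.345%). Without regard to the test, 401 genes were past 1.5-fold higher (3.21%) and 1588 past 1.5-fold lower (12.7%). Limma put 267 of the 12481 genes above and 1031 below normoxia at an unadjusted p under 0.05. Both day 7 libraries lay above both normoxic ones for 1121 genes (8.98%) and below them for 4029 (32.3%). The median log2 fold change of all genes was -0.18, and -0.0013 after median ratio scaling. The counts above hold this shift, and list medians below are to be read beside -0.18. Under that scaling limma called 6 genes higher and 30 lower, and the counts without the test were not taken again. For all 48 DE genes the day 7 and normoxic libraries did not overlap, so most alternatives could not turn the direction. It was also the same under median ratio scaling and voom, which could have turned it. Without normoxia replicate 1, limma called 26 genes, of which 21 were among the 48. Without day 7 replicate 1 or 2 it called 0 genes, with 1668 and 592 at an unadjusted p under 0.05, and without normoxia replicate 2 it called 185. With 2 libraries on each side, the smallest p of an exact permutation test is 0.333.

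**Figure D1:**
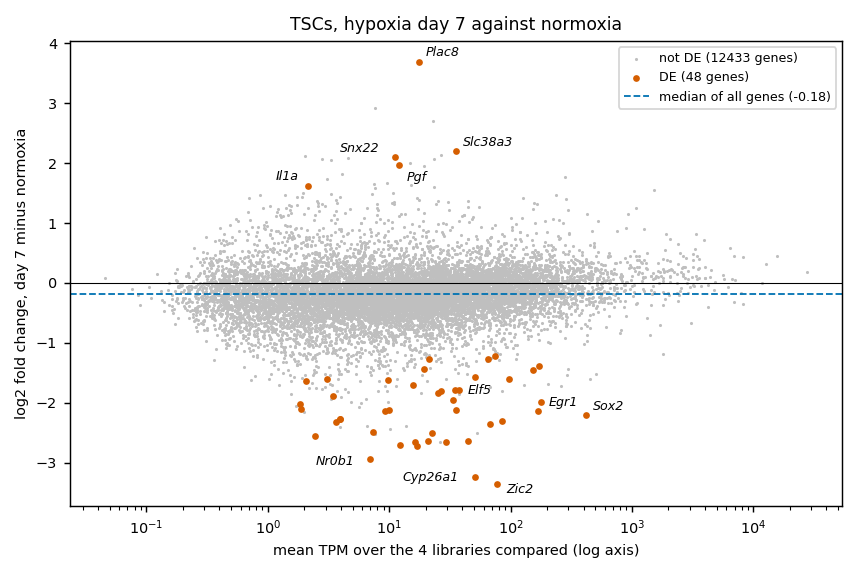
Log2 fold change of each of the 12481 genes on day 7 against normoxia (y axis) by its mean TPM over the 4 libraries compared (x axis, log scale), with the 48 DE genes in orange. Most DE genes lie below the dashed line, which marks the median of all genes at -0.18.

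The genes that rose were few. Plac8, a marker of spongiotrophoblast and glycogen trophoblast, had 1.67 and 2.41 TPM in normoxia, 2.68 and 7.64 after 2 days and 24.1 and 42.04 after 7 days, a 12.9-fold rise on the log2(TPM + 0.5) scale (log2 fold change 3.69, SE 0.49, adjusted p = 0.0733). Both day 7 libraries lay well above the other 4. Slc38a3, a glutamine transporter, had 15.1 and 9.94 TPM in normoxia, 8.27 and 13.4 after 2 days and 63.8 and 52.6 after 7 days, a 4.58-fold rise (log2 fold change 2.20, SE 0.31, adjusted p = 0.084). Its levels on day 2 overlapped those in normoxia. Snx22, a sorting nexin, rose 4.29-fold, from 3.76 and 4.01 to 17.8 and 18.8 TPM. Pgf, the placental growth factor, a ligand of the VEGF receptor Flt1, rose 3.903-fold, from 6.01 and 3.51 TPM in normoxia over 7.29 and 9.91 on day 2 to 20.1 and 18.9 on day 7 (adjusted p = 0.0957). Il1a, the cytokine interleukin-1 alpha, rose from 0.908 and 0.683 to 3.201 and 3.78 TPM, and stood at 0.678 and 0.753 on day 2. In each of the 5 genes both day 7 libraries also lay above both day 2 libraries. Without normoxia replicate 1, the log2 fold changes were 3.47 for Plac8, 2.49 for Slc38a3, 2.31 for Pgf, 2.06 for Snx22 and 1.75 for Il1a. Of the 15 alternative fits described below, the call held in 11 for Plac8 and for Slc38a3. It held in 9 for Snx22, in 6 for Pgf and in 3 for Il1a.

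**Figure D2:**
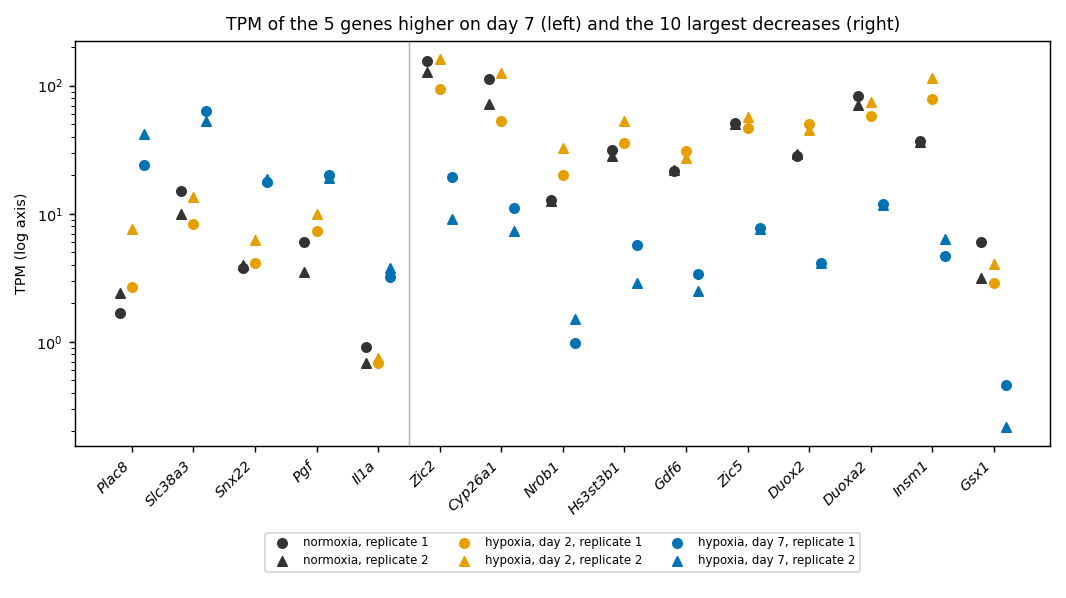
TPM (log axis) in each of the 6 TSC libraries for the 5 genes that rose on day 7 and the 10 that fell most, with colours for the groups and shapes for the replicates. In each of these genes the 2 day 7 libraries lie apart from the other 4, such as Zic2 at 19.4 and 9.03 TPM on day 7 and at least 94.3 TPM in the others.

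Regulators of the TSC state were among the genes that fell. Sox2, a transcription factor of both TSCs and ESCs, had 660.2 and 714 TPM in normoxia, 1045 and 1104 after 2 days and 172 and 129 after 7 days, and thus fell 4.61-fold (log2 fold change -2.20, SE 0.20, adjusted p = 0.0185). Its day 2 libraries were above normoxia and its day 7 libraries below. Elf5, an ETS factor that maintains the trophoblast fate, fell from 60.4 and 56.6 TPM over 82.5 and 85.1 on day 2 to 18.8 and 14.7 on day 7 (log2 fold change -1.78, SE 0.20, adjusted p = 0.0435). Esrrb, an orphan nuclear receptor downstream of FGF signalling in TSCs, fell from 26.1 and 22.4 to 8.89 and 5.64 TPM (log2 fold change -1.70, SE 0.26, adjusted p = 0.0957). Nr0b1 (Dax1), an orphan nuclear receptor and corepressor, fell 7.66-fold, from 12.8 and 12.6 TPM to 0.984 and 1.502, after 19.98 and 32.6 on day 2. Lin28a, an RNA-binding protein that blocks the maturation of let-7 microRNAs, had 48.5 and 59.1 TPM in normoxia, 106 and 121 after 2 days and 18.4 and 12.6 after 7 days. Without normoxia replicate 1, the log2 fold changes were -2.26 for Sox2, -2.93 for Nr0b1, -1.92 for Lin28a, -1.74 for Elf5 and -1.60 for Esrrb. Of the 15 alternative fits, the call held in 13 for Sox2, 12 for Nr0b1, 11 for Elf5, 8 for Lin28a and 6 for Esrrb.

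Cdx2 and Eomes, a caudal and a T-box factor that act early in the trophoblast lineage, did not pass the test. Cdx2 had 139.6 and 125 TPM in normoxia, 88.01 and 169 after 2 days and 40.3 and 35.1 after 7 days (log2 fold change -1.80, SE 0.31, adjusted p = 0.124). Eomes had 439 and 364, then 271 and 469, then 142 and 104 TPM in the same order (log2 fold change -1.71, SE 0.30, adjusted p = 0.125). For both, the day 7 libraries lay below the other 4. These are RNA levels. By immunofluorescence, the authors found CDX2 protein retained in TSCs after prolonged hypoxia, and higher than in normoxia. The lower Cdx2 RNA thus does not show a loss of the protein, and why RNA and protein differ was not tested. Of the other early trophoblast factors, Tfap2c had 396 and 484 TPM in normoxia and 488 and 463 on day 7, which overlap. Gata3 had 41.7 and 49.3 TPM in normoxia and 40.8 and 29.6 on day 7, and Tead4, which acts upstream of Cdx2, had 26.2 and 25.9, then 22.2 and 15.3. Over the 25 TSC regulators tested, 0 rose and 5 fell, beside 0.345% of all genes that fell. Of the 25, 12 were past 1.5-fold lower and 1 higher, beside 12.7% and 3.21% of all genes, and 16 had day 7 libraries below the normoxic ones, beside 32.3%. Their median log2 fold change was -0.52 on day 7 and 0.33 on day 2, and -0.93 and -0.30 on day 7 without day 7 replicate 1 or 2. Among those that did not pass were Sox21 (238 and 156 TPM in normoxia and 62.8 and 55.8 on day 7), Id2 (673 and 682, then 219 and 229), Satb1 (7.87 and 5.20, then 2.47 and 1.68) and Bmp4 (99.0 and 131, then 44.9 and 54.8). The 2 regulators with day 7 libraries above the normoxic ones were Ets2 (178 and 191, then 307 and 202) and Sox15 (123.03 and 169, then 173 and 230.4), while the libraries of Gata2 overlapped.

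**Figure D3:**
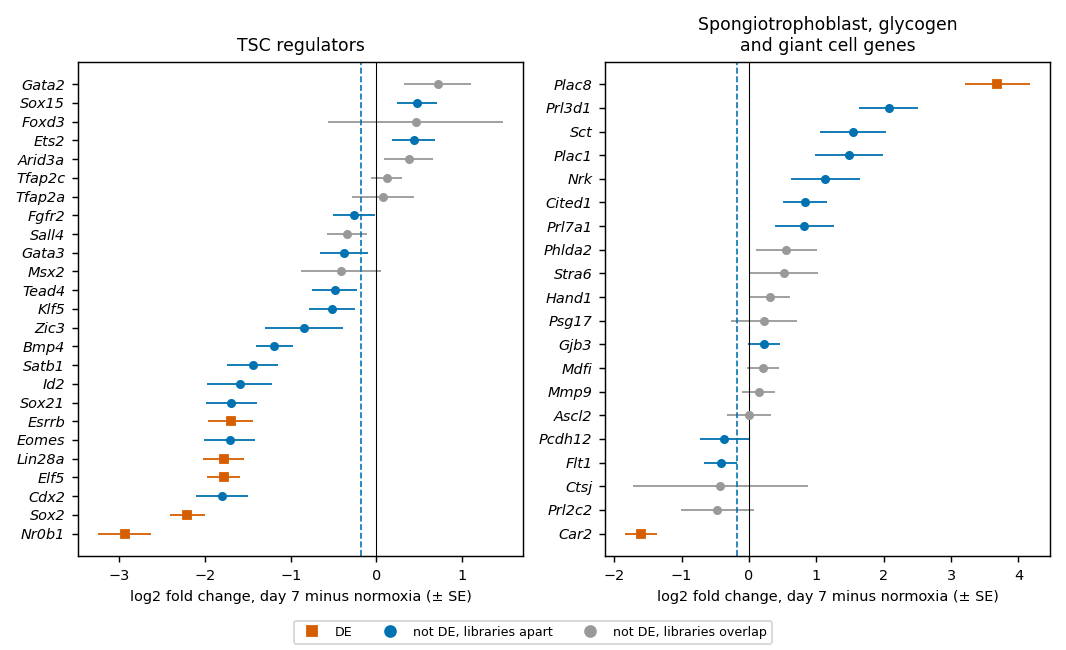
Log2 fold change on day 7 against normoxia with its SE for the 25 TSC regulators and the 20 genes of spongiotrophoblast, glycogen cells and giant cells tested, with the median of all genes as a dashed line. Most regulators lie to the left of it, and Plac8 lies at 3.69 and Car2 at -1.60 in the right panel.

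Over 20 genes of spongiotrophoblast, glycogen cells and giant cells, 1 rose (Plac8) and 1 fell (Car2), beside 0.0401% and 0.345% of all genes. Of the 20, 7 were past 1.5-fold higher and 1 lower, beside 3.21% and 12.7% of all genes, and the median log2 fold change was 0.27. Without normoxia replicate 1 that median was 0.059, without normoxia replicate 2 it was 0.84 and without day 7 replicate 1 it was 0.54. Car2, a carbonic anhydrase, fell from 164 and 127 to 44.5 and 50.5 TPM. Prl3d1, the placental lactogen of giant cells, had 0.388 and 1.17 TPM in normoxia and 3.22 and 6.53 on day 7 (log2 fold change 2.07, adjusted p = 0.175). Sct, which encodes the hormone secretin, had 738 and 803 TPM in normoxia, 452 and 1476 after 2 days and 2219 and 2279 after 7 days (adjusted p = 0.343). Plac1, an X-linked gene needed for placental growth, had 2.48 and 4.95 TPM in normoxia and 9.43 and 12.3 on day 7. The X-linked kinase gene Nrk had 15.2 and 39.8, then 65.3 and 45.96 TPM. The day 7 libraries of all 4 genes were above the normoxic ones, and none of the 4 passed the test. Hand1, which promotes giant cell fate, overlapped between the groups, with 8648 and 14196 TPM in normoxia and 14763 and 12871 on day 7, and so did Ascl2, needed for spongiotrophoblast, with 4.35 and 7.38, then 5.91 and 5.46.

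In the list of syncytiotrophoblast and labyrinth genes, 1 of 21 fell and 0 rose, beside 0.345% and 0.0401% of all genes. The median log2 fold change was -0.26, with -0.61 and 0.043 without normoxia replicate 1 or 2 and -0.087 without day 7 replicate 2. The gene that fell was Gjb2, which encodes the gap junction protein connexin 26 of the labyrinth. It had 98.1 and 130.1 TPM in normoxia, 81.1 and 70.01 after 2 days and 22.2 and 21.4 after 7 days, a 5.09-fold decrease (adjusted p = 0.0185). Gcm1, the regulator of syncytiotrophoblast, was under 1 TPM in these libraries, with 0.193 and 0.874 in normoxia and 0.263 and 0.0706 on day 7, which overlap. Slc16a3, a lactate exporter of the labyrinth and a HIF target, had 334 and 356 TPM in normoxia, 717 and 1172 after 2 days and 615 and 806 after 7 days.

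Several of the largest decreases were in developmental regulators that are better known from the epiblast and the nervous system. Zic2 and Zic5 encode zinc finger factors of neural and epiblast development and lie side by side on chromosome 14, with start sites 9758 bp apart. Zic2 had 156 and 127 TPM in normoxia, 94.3 and 161 after 2 days and 19.4 and 9.03 after 7 days, a 10.3-fold decrease and the largest of the DE genes (log2 fold change -3.36, SE 0.39, adjusted p = 0.0567). Zic5 had 51.6 and 50.5, then 46.5 and 56.7, then 7.73 and 7.62 TPM in the same order, a 6.304-fold decrease (SE of the log2 value 0.20, adjusted p = 0.0161). Insm1, a zinc finger factor of neuroendocrine cells, had 36.8 and 36.4 TPM in normoxia, 78.4 and 114 after 2 days and 4.65 and 6.396 after 7 days. It was thus above normoxia on day 2 and 6.23-fold below it on day 7. The homeobox genes Gsx1 and Msx3 fell from 6.01 and 3.14 to 0.457 and 0.215 TPM and from 6.32 and 5.11 to 1.403 and 0.989 TPM. Foxh1, which partners SMAD2 in Nodal signalling, fell from 199.7 and 252 to 76.1 and 87.4 TPM, and Snai3, a member of the Snail family, from 29.5 and 31.5 to 11.5 and 13.1.

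Other nuclear factors that fell were Tox2, an HMG-box protein, from 3.101 and 3.38 to 0.525 and 0.328 TPM, Zfp382, a zinc finger gene, from 44.5 and 35.2 to 13.6 and 8.49, and Nacc1, a BTB domain regulator, from 92.2 and 91.7 to 43.5 and 32.9. Over all 156 tested genes of developmental transcription factor families, 0 rose and 7 fell, beside 0.0401% and 0.345% of all genes, and 70 were past 1.5-fold lower and 6 higher, beside 12.7% and 3.21%. The median log2 fold change was -0.46, with -0.23 and -0.83 without normoxia replicate 1 or 2. The epiblast, pluripotency and primitive streak list had a median of -0.85 over 21 genes (-0.49 without normoxia replicate 1), with 0 that rose and 4 that fell (Sox2, Esrrb, Nr0b1 and Zic2), beside 0.345% of all genes that fell. It holds nuclear factors named above, so it is not separate evidence. Utf1, a chromatin factor of pluripotent cells, had 1887 and 3143 TPM in normoxia and 1034 and 1111 on day 7, and Pou3f1, a POU factor, had 422 and 451, then 136 and 164, and neither passed. T (Brachyury), the primitive streak factor, had 0.547 and 0.91 TPM in normoxia and was listed at 0 in both day 7 libraries.

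FGF receptors and the genes that ERK signalling induces, many of which feed back on it, were mostly lower. Of 21 tested, 0 rose and 2 fell, beside 0.0401% and 0.345% of all genes. Of the 21, 16 were past 1.5-fold lower and 0 higher, beside 12.7% and 3.21% of all genes, and 16 had day 7 libraries below the normoxic ones, beside 32.3%. The median log2 fold change was -0.83 on day 7, or -0.67 without normoxia replicate 1, and 0.012 on day 2. Egr1, an immediate early transcription factor induced by ERK, had 315 and 255 TPM in normoxia, 305 and 321 after 2 days and 80.9 and 62.1 after 7 days, a 3.98-fold decrease (log2 fold change -1.99, SE 0.21, adjusted p = 0.0346). Spry1, an inhibitor of receptor tyrosine kinase signalling, had 64.3 and 52.6, then 129 and 71.2, then 15.3 and 10.9 TPM in the same order, a 4.36-fold decrease (adjusted p = 0.0957). Without normoxia replicate 1 Egr1 kept the call (adjusted p = 0.0701) and Spry1 did not (0.206).

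Several members of this list did not pass, among them Fgfr4 with 33.2 and 13.5 TPM in normoxia and 5.98 and 2.14 on day 7, and the ERK phosphatase gene Dusp6 with 439 and 194, then 86.9 and 94.7. The ETS factors Etv4 and Etv5 had log2 fold changes of -1.05 and -1.37, and Spry4 had -1.44. Fgfr2, an FGF4 receptor of TSCs, had 0.572 and 0.519 TPM in normoxia and 0.385 and 0.357 on day 7. Not all members were lower, as Dusp5 had 228 and 163 TPM in normoxia, 94.3 and 83.6 after 2 days and 246 and 245 after 7 days, and Fosl1 had 154 and 118, then 26.5 and 49.6, then 184 and 204. Fgfbp1, which releases FGFs from the matrix and stood outside the list, fell from 78.1 and 75.4 to 25.2 and 25.98 TPM after 333 and 207 on day 2. It was the 1 gene of the 48 that was also DE on day 2, where it rose (0.2% of all genes were DE on day 2).

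Ligands, receptors and their modulators made up a further share of the genes that fell. Gdf6, a BMP family ligand, had 21.7 and 21.9 TPM in normoxia, 31.2 and 27.3 after 2 days and 3.39 and 2.52 after 7 days, a 6.51-fold decrease (adjusted p = 0.0185). Wnt6, a Wnt ligand, fell from 19.1 and 14.3 to 2.97 and 3.91 TPM after 50.6 and 33.8 on day 2. Efna3, an ephrin, fell from 48.1 and 59.9 to 13.9 and 13.04 TPM. The receptor genes Il5ra and Cntfr, for interleukin-5 and ciliary neurotrophic factor, fell from 7.67 and 5.27 to 0.931 and 0.812 TPM and from 5.06 and 4.74 to 1.202 and 1.34. Socs2, a feedback inhibitor of cytokine receptors, fell from 16.9 and 14.1 to 3.22 and 3.05 TPM.

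Of 28 genes of Nodal, BMP and TGFb signalling 0 rose and 0 fell. Of the 28, 14 were past 1.5-fold lower and 0 higher, beside 12.7% and 3.21% of all genes. Limma put 0 above and 10 below normoxia at an unadjusted p under 0.05, beside 267 and 1031 of all 12481 genes. The median was -0.56, with -0.30 and -1.04 without normoxia replicate 1 or 2. Among them Fst, the secreted inhibitor of activin, had 43.6 and 14.02 TPM in normoxia and 8.11 and 8.35 on day 7, the ligand Bmp2 had 7.13 and 6.73, then 3.07 and 2.34, and Pcsk6, a protease that activates Nodal, had 3.24 and 2.96, then 0.913 and 1.18. Of 22 Wnt ligands and feedback genes 1 fell (Wnt6), beside 0.345% of all genes, with a median of -0.21, and with -0.45 and 0.049 without day 7 replicate 1 or 2. Of 60 ligands of secreted families 1 rose (Pgf) and 2 fell (Gdf6 and Wnt6), beside 0.0401% and 0.345% of all genes. Their median was -0.41, with 0.026 and -0.63 without normoxia replicate 1 or 2 and -0.19 without day 7 replicate 2.

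Cyp26a1, which degrades retinoic acid and is itself induced by it, fell 9.42-fold, from 113 and 71.4 TPM in normoxia and 52.9 and 126 on day 2 to 11.1 and 7.37 on day 7 (log2 fold change -3.24, SE 0.44, adjusted p = 0.0801, and 0.105 without normoxia replicate 1). It was the only member to pass of the 18 tested genes of retinoic acid metabolism and response, beside 0.385% of all genes. The median of the 18 was -0.17 and turned to 0.013 under median ratio scaling. That median was -0.35 and -0.049 without day 7 replicate 1 or 2, and -0.35 without normoxia replicate 2.

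The dual oxidase Duox2, which makes hydrogen peroxide, and Duoxa2, the factor it needs to leave the endoplasmic reticulum, fell together. They lie head to head on chromosome 2, with start sites 451 bp apart. Duox2 had 28.03 and 29.2 TPM in normoxia, 49.96 and 45.2 after 2 days and 4.12 and 4.15 after 7 days, a 6.28-fold decrease (SE of the log2 value 0.20, adjusted p = 0.0161). Duoxa2 had 82.4 and 71.2, then 57.6 and 74.1, then 11.9 and 11.8 TPM in the same order, a 6.25-fold decrease. On day 2 the pair differed, with Duox2 above normoxia in both libraries and Duoxa2 overlapping it. A further pair of neighbours that fell was Il5ra and Trnt1, with start sites 20083 bp apart on chromosome 6. Whether reads of one gene of a neighbouring pair were counted on the other was not tested.

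The promoter windows of the Duox2 and Duoxa2 pair and of Pgf are shown, since the pair fell together and Pgf was among the few genes that rose. They hold 250 bases before and 50 after a RefSeq start site (GRCm38.p6), read on the gene's strand. Capitals mark the core of a hypoxia response element, ACGTG or GCGTG on either strand, and a stretch matched by both is counted per match.

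Duox2, minus strand, chr2:122298178-122298477: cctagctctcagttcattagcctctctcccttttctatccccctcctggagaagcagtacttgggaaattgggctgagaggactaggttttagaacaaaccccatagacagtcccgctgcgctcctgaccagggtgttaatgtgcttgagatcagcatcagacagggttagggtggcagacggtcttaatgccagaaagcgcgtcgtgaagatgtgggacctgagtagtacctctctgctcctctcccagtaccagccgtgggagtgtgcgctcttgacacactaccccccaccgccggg

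Duoxa2, plus strand, chr2:122298650-122298949: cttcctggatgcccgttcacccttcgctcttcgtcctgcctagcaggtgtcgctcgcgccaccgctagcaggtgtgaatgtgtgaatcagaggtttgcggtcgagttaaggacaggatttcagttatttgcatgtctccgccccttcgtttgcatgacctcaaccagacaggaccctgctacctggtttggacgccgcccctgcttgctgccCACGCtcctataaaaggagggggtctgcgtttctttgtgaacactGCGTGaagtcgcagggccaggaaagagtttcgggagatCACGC

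Pgf, minus strand, chr12:85177264-85177563: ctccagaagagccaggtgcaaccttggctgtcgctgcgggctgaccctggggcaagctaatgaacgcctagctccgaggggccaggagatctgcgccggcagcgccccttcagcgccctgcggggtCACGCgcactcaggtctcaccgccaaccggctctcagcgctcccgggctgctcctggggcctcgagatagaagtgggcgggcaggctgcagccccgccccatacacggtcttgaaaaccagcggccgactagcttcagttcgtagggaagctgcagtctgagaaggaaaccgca

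The Duoxa2 window held 3 matches, the Pgf window 1 and the Duox2 window 0. The start sites used by RefSeq and by the gene models differ by 222 bp for Duox2 and 477 bp for Pgf. A RefSeq window was matched for 34 of the 48 DE genes and for 9944 of the 12481 genes. The core was present in 16 of 30 genes that fell (53.3%), in 2 of 4 that rose and in 63.9% of all windows. The binding element of estrogen-related receptors such as Esrrb, AAGGTCA on either strand, was in 2 of the 30 windows of genes that fell (Inpp1 and Kcnf1), and in 3.07% of all windows.

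The other genes that fell encode enzymes and membrane proteins. Among enzymes, Hs3st3b1, which sulfates heparan sulfate, fell from 31.5 and 28.2 to 5.67 and 2.901 TPM, and Inpp1, an inositol phosphatase, from 47.8 and 29.3 to 7.41 and 5.15. Nat8l, which makes N-acetylaspartate, fell from 295 and 252 to 80.1 and 47.97 TPM, Gpx3, a secreted glutathione peroxidase, from 255 and 237 to 100.4 and 87.8, and Trnt1, which adds the CCA end to tRNAs, from 114 and 93.3 to 45.9 and 42.5. Nptxr, a neuronal pentraxin receptor, fell 4.94-fold from 139 and 143 to 29.7 and 26.6 TPM (adjusted p = 0.0185). C1ql4, Kcnf1, Tmem114, Trim9, Pcsk1n, Sapcd2, Wscd1 and Gm5819 also fell, with log2 fold changes between -2.48 (Tmem114) and -1.43 (Sapcd2). In the list of neural genes 1 of 14 tested fell (Insm1) and 0 rose, beside 0.345% and 0.0401% of all genes. Of the 14, 6 were past 1.5-fold lower and 1 higher, beside 12.7% and 3.21%. The median was -0.45, with -0.27 and -0.73 without normoxia replicate 1 or 2. Not all of them were lower, as Tubb3, a neuronal tubulin, had 144 and 138 TPM in normoxia and 323 and 202 on day 7.

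The medians of known hypoxia targets were closer to normoxia on day 7 than on day 2. Of 26 glycolysis enzymes and glucose or lactate transporters 0 were DE by limma. It put 8 above and 1 below normoxia at an unadjusted p under 0.05, beside 267 and 1031 of all 12481 genes. Of the 26, 5 were past 1.5-fold higher and 1 lower, beside 3.21% and 12.7% of all genes. The median log2 fold change was 0.19 on day 7 and 1.06 on day 2, with the same normoxic libraries in both. The medians of all genes were -0.18 on day 7 and 0.069 on day 2, so part of the difference lies in this shift. Under median ratio scaling the day 7 median of the list was 0.38, and that of day 2 was not taken. Pdk1, which keeps pyruvate out of the mitochondria, had 15.5 and 14.5 TPM in normoxia, 89.6 and 82.02 after 2 days and 15.6 and 15.2 after 7 days. The day 2 libraries stood far above the other 4, and those of day 7 and normoxia overlapped. Slc2a3, a glucose transporter, had 11.2 and 19.4, then 220.4 and 140.4, then 19.8 and 19.6 TPM in the same order.

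Part of the enzymes remained above normoxia in both libraries, without passing the test. Aldoc, an aldolase, had 14.1 and 23.9 TPM in normoxia, 301 and 164 after 2 days and 37.5 and 49.5 after 7 days (log2 fold change 1.21, adjusted p = 0.319), and Tpi1 had 1571 and 1523, then 3388 and 3527, then 2609 and 2549. For 13 of the 26 genes both day 7 libraries were above both normoxic ones, beside 8.98% of all genes. Pfkfb3, an activator of glycolysis, was on the other side, with 7.29 and 5.34 TPM in normoxia, 22.7 and 18.3 after 2 days and 4.08 and 3.24 after 7 days.

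Of 45 other hypoxia response genes 0 were DE by limma. It put 8 above and 1 below normoxia at an unadjusted p under 0.05, beside 267 and 1031 of all 12481 genes. Of the 45, 11 were past 1.5-fold higher and 2 lower, beside 3.21% and 12.7% of all genes. The median was 0.30 on day 7 and 0.76 on day 2. On day 7 it was 0.48 under median ratio scaling, 0.12 without day 7 replicate 1 and 0.18 without normoxia replicate 2. Egln3, an oxygen sensor that HIF induces, had 3.996 and 2.78 TPM in normoxia, 11.4 and 15.3 after 2 days and 6.43 and 6.71 after 7 days. Adm, the vasodilator adrenomedullin, had 265 and 51.4 TPM in normoxia and 321 and 493 on day 7 (log2 fold change 1.76, adjusted p = 0.543), and Vegfa had 215 and 96.8, then 227 and 215. In both, normoxia replicate 1, high in feeder genes, was the higher of its pair. Of 19 angiogenic factors and receptors 1 rose (Pgf) and 0 fell, beside 0.0401% and 0.345% of all genes. Their median of -0.42 was -0.75 without normoxia replicate 2 and turned to 0.10 without normoxia replicate 1, the library with 4494 TPM of Thbs1 where replicate 2 had 408. The VEGF receptor gene Kdr had 8.62 and 7.51 TPM in normoxia and 3.35 and 2.61 on day 7.

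**Figure D4:**
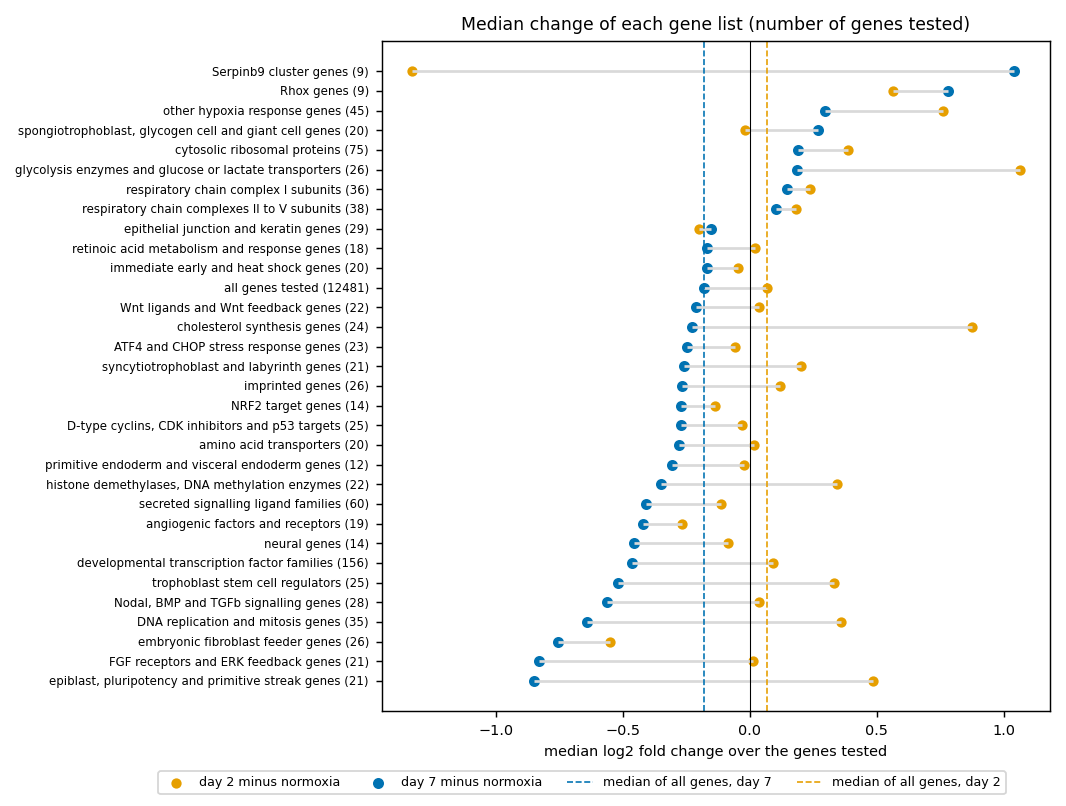
Median log2 fold change over the tested genes of each list on day 2 (orange) and day 7 (blue) against the same normoxic libraries, with the medians of all genes as dashed lines. The epiblast and FGF lists are the lowest on day 7 (-0.85 and -0.83), and the glycolysis list moves from 1.06 on day 2 to 0.19 on day 7.

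Genes of DNA replication and mitosis were mostly lower, though none passed the test. Of 35 tested 0 rose and 0 fell by limma. It put 0 above and 25 below normoxia at an unadjusted p under 0.05, beside 267 and 1031 of all 12481 genes. Of the 35, 19 were past 1.5-fold lower and 0 higher, beside 12.7% and 3.21% of all genes. Day 7 libraries lay below the normoxic ones for 31 of them, beside 32.3% of all genes. The median was -0.64 on day 7, between -0.71 and -0.45 under the alternatives, and 0.36 on day 2. Their summed TPM was 4908 and 5069 in the normoxic libraries, 6316 and 5971 at day 2, and 3412 and 3263 at day 7. Mki67, the proliferation marker, had 112 and 155 TPM in normoxia, 230.1 and 189 after 2 days and 68.9 and 65.04 after 7 days (adjusted p = 0.197), and the replication factor Mcm10 had 43.5 and 45.5, then 41.02 and 53.1, then 24.8 and 18.8. The CDK inhibitor gene Cdkn1c, which giant cells use to stop dividing, had 863 and 2040.4 TPM in normoxia and 2344 and 2329 on day 7, where normoxia replicate 2 was close to the day 7 libraries.

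**Figure D5:**
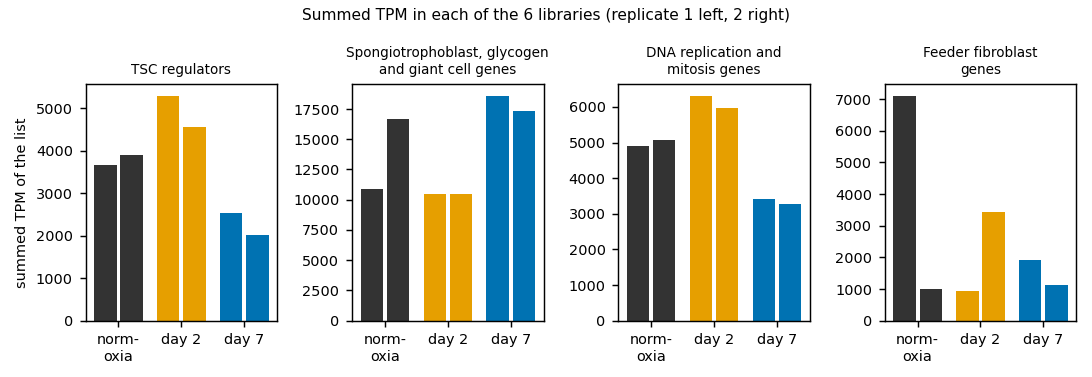
Summed TPM of 4 gene lists in each of the 6 TSC libraries (bars from 0, replicate 1 left and 2 right). Regulator and replication genes are lowest in both day 7 libraries, and the feeder fibroblast genes are highest in normoxia replicate 1 at 7111 TPM.

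The DE genes were also set beside day 2. All 43 genes that fell had both day 7 libraries below both day 2 libraries, and all 48 were DE between day 7 and day 2 as well, a comparison that shares the day 7 libraries with the choice of the genes and in which 16.2% of all genes were DE and 13.8% were DE and lower. On day 2, 29 of the 43 were above normoxia by their log2 fold change, 12 past 1.5-fold (12.6% of all genes), and 1 was past 1.5-fold lower (Il5ra, with 1.91 and 3.57 TPM on day 2). The median day 2 log2 fold change of the 43 was 0.26.

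The genes that fell in TSCs were looked up in the other cell types. Of the 34 tested in ESCs, 2 were past 1.5-fold lower on day 7 (Insm1 and Gsx1) and 2 higher, where 1.23% of all ESC genes were past 1.5-fold lower. By limma 0 were DE, beside 0.758% of all, with 4 at an unadjusted p under 0.05. Sox2 had 2809 and 3437 TPM in normoxic ESCs and 2667 and 2876 on day 7, which overlap. Gsx1 had 1.69 and 5.38, then 0.187 and 1.80 TPM in the same order, which overlap too. Of the 21 tested in XEN cells, 7 were past 1.5-fold lower (Zic2, Zic5, Socs2, Spry1, Wnt6, Car2 and Foxh1) and 2 higher, beside 3.64% of all genes lower. By limma 0 were DE, beside 0.11% of all, with 6 at an unadjusted p under 0.05. For the 4 in ESCs and the 6 in XEN cells no share of all genes was taken. Zic2 had 40.8 and 35.01 TPM in normoxic XEN cells and 15.5 and 17.6 on day 7. Wnt6 had 2.18 and 0.435, then 0.592 and 0.514 TPM, and Foxh1 had 5.54 and 2.95, then 3.08 and 1.34. The XEN libraries of both genes overlap. The difference between cell types was not tested, and the authors normalized each table on its own.

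Some genes with large changes did not pass the test. The largest increases that did not pass, with libraries that did not overlap, were in Ldoc1 (0.403 and 2.99 TPM in normoxia and 9.17 and 17.9 on day 7), the endothelial junction genes Esam (6.09 and 5.56, then 39.7 and 41.05) and Cdh5 (9.68 and 9.48, then 49.8 and 38.7), the keratin gene Krt17 (0.122 and 0.792, then 2.298 and 4.92) and Fthl17a (0.657 and 2.44, then 5.17 and 10.2), a ferritin gene with close copies and thus uncertain. On day 2 Esam had 3.24 and 23.8 TPM and Cdh5 had 6.94 and 31.8, so that their replicates stood apart there. The largest decreases of this kind were in the imprinted gene Mest (59.2 and 31.96, then 10.9 and 3.78), Msx1 (21.9 and 12.2, then 4.89 and 1.298), Fgfr4, Tnfsf18 (28.6 and 0.921, then 0.87 and 0.409) and Col10a1 (15.3 and 0.153, then 0.145 and 0.0681). In Tnfsf18 and Col10a1 the difference rests on normoxia replicate 1, the library high in feeder genes.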

How the data were processed

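RNA-seq was made from total RNA (KAPA RNA HyperPrep kit) of TSCs in normoxia and on day 2 and day 7 of hypoxia. The authors trimmed reads with cutadapt 2.4, aligned them to mm10 with STAR 2.7.5a, and deposited TPM of protein-coding genes in 1 table per cell type. StringTie 2.0.6 and featureCounts are also named in the submitters' processing notes. TPM multiplied by gene span came out as whole reads (within 0.05) for nearly all values, and these reads gave the depth and an alternative fit with voom. The authors tested counts with edgeR 3.26.8. Since the values are TPM, the test here was limma 3.58.1 in R 4.3.3 on log2(TPM + 0.5) with a mean-variance trend over the 6 TSC libraries, with no covariate and Benjamini-Hochberg adjustment over 12481 genes. Fold changes are on this scale and understate changes of low genes. Columns named D0 were read as normoxia.

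The genes, gene lists and comparison were chosen with earlier results of these data known. Named were all DE genes and 10 lineage factors. For each of 32 lists, the DE members and up to 4 others in each direction with libraries that did not overlap were named. So were the 5 largest changes in each direction that were not DE, with libraries that did not overlap. Sox21, Satb1, Bmp4, Gata2, Nrk, Etv4, Etv5, Spry4, Fgfr2, Utf1, Pou3f1, Pdk1 and Slc2a3 were added after their values were seen. Of 13 mitochondrially encoded genes 0 were in the table. Nothing says that same-numbered replicates were grown together, and p-values measure the spread between 2 biological replicates per group. On simulated counts for 12406 genes with 200 changed, the test recovered 99.0% of 4-fold and 71% of 2-fold changes, and 10.6% of its calls were unchanged genes. The simulation gave genes of similar level the same spread and changed only genes with many reads. It held no library that stood apart, as normoxia replicate 1 did. It called 189 genes where the data gave 48, so these rates cannot be taken over to the data. Alternatives were the pseudocount, the filter, the scaling, the trend, the libraries fitted, the replicate block, voom and leaving out each library. Figures were drawn with matplotlib 3.10.9 in Python 3.11.15. Promoters came from RefSeq (GRCm38.p6) and gene positions from GENCODE.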

Additional observations from a re-analysis of the deposited data

Results flagged for a closer look

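Of the 43 genes that fell on day 7, 12 stood past 1.5-fold above normoxia on day 2, beside 12.6% of all genes. They were chosen for being past 1.5-fold higher on day 2 and past 1.5-fold lower on day 7, so the difference between the days is given as a description with no test. Of the 12, only Fgfbp1 was DE on day 2. As log2 fold changes of day 7 minus day 2, Insm1 had -4.00, Nr0b1 -3.92, Wnt6 -3.42, Duox2 -3.37, Fgfbp1 -3.33 and Tmem114 -3.20. Kcnf1 had -3.11, Sox2 -2.85, Lin28a -2.85, Spry1 -2.84, Pcsk1n -2.43 and Sapcd2 -2.19. For Sox2 the levels were 1045 and 1104 TPM on day 2 and 172 and 129 on day 7, and for Insm1 they were 78.4 and 114, then 4.65 and 6.396. With 2 libraries in a group no library could be tested as an outlier.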

How the results depend on the processing

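All 48 DE genes kept their direction under the 15 alternatives. As their day 7 and normoxic libraries lay apart, only median ratio scaling and voom could have turned it. The number called by limma did not hold. It was 13 (0 higher, 13 lower) without a filter on low values, 25 (1 higher, 24 lower) with voom on the recovered reads and 12 (0 higher, 12 lower) at an adjusted p of 0.05. It was 42, with 9 higher, when the 4 compared libraries were fitted alone, and only 30 of the 48 were among these. Under median ratio scaling it was 36, with 6 higher and 30 lower, and 34 of the 48 were among these. Beside each count of 0 higher, 1359 genes without the filter and 267 higher genes of the reported fit were at an unadjusted p under 0.05.

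Leaving out 1 library gave between 0 and 185 DE genes, 0 to 33 of them higher and 0 to 152 lower. The 185 came without normoxia replicate 2 (44 of the 48 among them), 26 without normoxia replicate 1 (21 of the 48), 41 without either day 2 library, and 0 without day 7 replicate 1 or 2 (1668 and 592 at an unadjusted p under 0.05). The library left alone in its group was assumed to vary like the others. Zic5, Duox2, Duoxa2, Sox2, Gjb2, Gdf6, Nptxr and Egr1 were DE in 13 of the 15 alternatives, all but those without a day 7 library. Il1a, Nacc1, Snai3 and Wscd1 were DE in 3 of the 15, the fewest among the 48. The causes were not tested.

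With the replicate block limma called 13 genes (1 higher, 12 lower), all among the 48. Same-numbered deviations from the group means correlated at 0.27 between normoxia and day 7, -0.46 between normoxia and day 2 and -0.025 between day 2 and day 7, so the numbers were not taken as pairs.

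Among the named genes that were not DE, 5 turned direction under an alternative. Leaving out 1 library moved Tfap2c between -0.027 and 0.26, Hand1 between -0.042 and 0.67 and Ascl2 between -0.35 and 0.35, each lowest without normoxia replicate 1 and highest without normoxia replicate 2. Ascl2 also had -0.0024 with a pseudocount of 1, -0.052 without day 7 replicate 1 and -0.044 as a ratio of mean TPM. Atp5a1 had 0.16 under median ratio scaling and 0.10 with voom, and Rpl13 had 0.027 under median ratio scaling. That scaling moves all genes up alike (median from -0.18 to -0.0013), so any gene slightly below 0 turns with it, and these turns say nothing about Atp5a1 or Rpl13 themselves.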

Other observations

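Of 9 genes of the Serpinb9 cluster, serine protease inhibitors of trophoblast, 7 were past 1.5-fold higher and 1 lower, beside 3.21% and 12.7% of all genes, with median log2 fold changes of 1.04 for day 7 and -1.33 for day 2. Serpinb9e had 46.6 and 84.9 TPM in normoxia and 159 and 112 on day 7, and Serpinb9d had 20.4 and 31.1, then 70.4 and 44.3. Of 9 genes of the Rhox cluster, homeobox genes of reproductive tissues and placenta, 7 were past 1.5-fold higher and 1 lower, beside the same shares. Their median was 0.78, or 0.50 without normoxia replicate 1. Rhox9 had 1976 and 2919 TPM in normoxia and 4121 and 4357 on day 7. By limma 0 genes of either list were DE. At an unadjusted p under 0.05 limma put 5 higher and 1 lower in the first list and 6 and 1 in the other. Of all 12481 genes 267 were higher and 1031 lower at that p. Both families hold near-identical copies among which reads may be split, so these values are uncertain.

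Of 29 epithelial genes 0 were DE by limma (2 higher and 3 lower with an unadjusted p under 0.05), and 4 were past 1.5-fold higher and 10 lower, beside 3.21% and 12.7% of all genes. Krt19 had 311 and 1139.5 TPM in normoxia and 1259.7 and 1598 on day 7, Krt7 had 516 and 728, then 1057 and 1273, Cdh1, which encodes E-cadherin, had 144 and 221, then 94.2 and 98.4, and Cldn6, a tight junction protein, 864 and 1198, then 544 and 603. The median was -0.15 and turned to 0.036 under median ratio scaling and 0.013 without normoxia replicate 2, and was -0.071 without day 7 replicate 2.

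Of the lists not yet given, cytosolic ribosomal proteins had a median of 0.19 over 75 genes, complex I subunits 0.15 over 36 and subunits of complexes II to V 0.10 over 38. Without day 7 replicate 1 these were 0.42, 0.31 and 0.25, and without day 7 replicate 2 they turned to -0.043, -0.028 and -0.0061. Complex I had 0.095 and complexes II to V 0.048 without normoxia replicate 2, and the latter 0.16 without normoxia replicate 1. Genes of cholesterol synthesis had -0.23 over 24 genes on day 7 and 0.87 on day 2. On day 7 they had -0.44 and 0.018 without day 7 replicate 1 or 2, and -0.37 and -0.12 without normoxia replicate 1 or 2. The 22 oxygen-dependent histone demethylases and DNA methylation enzymes had -0.35, with -0.64 and -0.088 without day 7 replicate 1 or 2. Among them Dnmt3b, a DNA methyltransferase, had 90.1 and 103 TPM in normoxia and 46.2 and 34.6 on day 7.

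The medians of the remaining lists also depended on single libraries. The 25 cyclins, CDK inhibitors and p53 targets had -0.27, with 0.053 without normoxia replicate 1 and -0.096 without day 7 replicate 2. The 23 ATF4 and CHOP targets had -0.25, with -0.12 and -0.44 without normoxia replicate 1 or 2 and -0.41 and -0.11 without day 7 replicate 1 or 2. The 14 NRF2 targets had -0.27, with 0.075 without normoxia replicate 1 and -0.14 without day 7 replicate 2. The 26 imprinted genes had -0.27, with -0.43 and -0.040 without day 7 replicate 1 or 2. The 12 primitive endoderm genes had -0.31, with -0.11 without normoxia replicate 1 and -0.18 without day 7 replicate 2. The 20 amino acid transporters had -0.28, with -0.10 without day 7 replicate 2, and 1 rose (Slc38a3), beside 0.0401% of all genes. The 20 immediate early and heat shock genes had -0.17, with -0.30 without normoxia replicate 1 and 0.029 under median ratio scaling. Of these 1 fell (Egr1), beside 0.345% of all genes. The 26 feeder fibroblast genes had -0.75, with 0.39 and -1.86 without normoxia replicate 1 or 2. Limma called 0 of them, with 0 at an unadjusted p under 0.05, beside 48 and 1298 of all 12481 genes.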
